A study of Mus musculus with 3 samples.

Results

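The genes described here encode 10 folding factors of the endoplasmic reticulum (ER). They are Hspa5, Hsp90b1, Pdia3, Pdia4, Pdia6, Calr, Canx, Creld2, Sdf2l1 and Manf, chosen by symbol from the 32285 mouse genes in the deposited matrices. The ER is where secreted and membrane proteins are folded, sulphur-bridged and glycosylated, and chaperones hold them until they are folded. When unfolded protein builds up, the sensors ATF6, IRE1 and PERK start the unfolded protein response, which raises transcription of most of these genes. In heart, cardiomyocytes, matrix-secreting fibroblasts and leukocytes all use them, and ischemia with reperfusion is a known trigger of ER stress.

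Spatial transcriptomes (Visium) were measured on heart cryosections of C57BL/6 mice, 1 section for each of 3 conditions. The sham mouse was gavaged with vehicle for 7 days and then operated on with the needle alone, without tying the artery. The I/R mouse had the same vehicle for 7 days, and its left anterior descending coronary artery (LAD) was then tied for 30 min and reopened for 24 h. The SBP mouse was gavaged for 7 days with Shexiang Baoxin Pill, a traditional Chinese medicine labelled MUSKARDIA, and had the same 30 min of ligation and 24 h of reperfusion. By the paper's methods the pill was dissolved in vehicle. The vehicle was thus common to all 3 conditions, and the ischemic injury to I/R and SBP. The labels give neither age, sex nor the level at which a heart was cut, and 1 section stands for each condition, so animal, section and condition cannot be told apart. No test between conditions was possible and no p-value is given. Each 95% interval covers counting error only.

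Spots with at least 200 detected genes numbered 2234, 2082 and 1960 in sham, I/R and SBP, and held 25118258, 30238530 and 21631280 UMIs (unique molecular identifiers, each counting 1 captured RNA molecule). A median spot held 10645, 14672 and 10652.5 UMIs, of which mitochondrial transcripts were 44.3% to 48.6% over a whole section. All 6 cardiomyocyte markers were detected in each section, with a summed level between 16335 and 26369 CPM (UMIs per 1000000 UMIs of the spots summed) in the Ankrd1 spot classes defined below. The section pairs shared 1205 to 1565 spot barcodes, which on Visium slides name positions of a common array and not cells. A spot is a small region that can hold several cells, so fewer cells of a type and less RNA per cell cannot be told apart in any value below. Ankrd1, a cardiomyocyte gene raised by stretch and stress, was used to class spots. A spot was called Ankrd1-high above the 95th percentile of sham, 27.0 Ankrd1 UMIs per 10000, which 112 sham spots (5.01%), 479 I/R spots (23.0%) and 326 SBP spots (16.6%) passed.

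The genes lie on 9 chromosomes (positions in GRCm38, GENCODE M21). Hspa5 is on chromosome 2 (34771970 to 34777547, plus strand), Hsp90b1 on 10 (86690209 to 86705509, minus) and Calr on 8 (84841850 to 84846934, minus). Pdia3 is on chromosome 2 (121413775 to 121438687, plus), Pdia4 on 6 (47796141 to 47813430, minus), Pdia6 on 12 (17266545 to 17284770, plus) and Canx on 11 (50293961 to 50325673, minus). Creld2 is on 15 (88819646 to 88826683, plus), Sdf2l1 on 16 (17130138 to 17132383, minus) and Manf on 9 (106838312 to 106891979, minus). Manf overlaps Rbm15b on the same strand, which had 171, 260 and 148 UMIs of its own in sham, I/R and SBP. A part of the reads of these neighbours might thus not be assigned safely, which was not measured. Hsp90b1 overlaps Gm15344 on the same strand, which had 0 UMIs in each section.

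Many of the members share a promoter sequence. The genes were chosen as ER chaperones and the sequence as a known element of the ER stress response, so these choices were not independent. The ER stress response element (ERSE), the composite site known to be bound by NF-Y and ATF6, is made of CCAAT and CCACG set 9 bases apart. It was searched on both strands of 32851 RefSeq promoters (GRCm38.p6), from 250 bases before to 50 bases after the start. An exact match stood in 39 promoters (0.119%), among them those of 6 of the 9 members with a promoter in the table: Hspa5, Hsp90b1, Pdia6, Calr, Canx and Creld2. With at most 1 mismatch it stood in 494 promoters (1.5%), now with Pdia3 and Pdia4 too. The related ERSE-II, ATTGG and CCACG set 1 base apart, had no exact match in the 9 and stood in 12 promoters (0.0365%). With 1 mismatch, ERSE-II stood in 381 promoters (1.16%), those of Hspa5, Creld2 and Sdf2l1 among them. Its first letters are the CCAAT box of ERSE read on the other strand, so an ERSE-II and an ERSE can overlap, as they did in Creld2. A match is a string of letters and not a measured binding site. The starts are those of the RefSeq promoters, and the sites of Hspa5 and Pdia3 fall inside the GENCODE spans given above. The sites are shown because 8 of the 9 promoters held an ERSE with at most 1 mismatch. Sdf2l1 held none and is shown by its ERSE-II, and Manf is named only. Each is written in the direction of its gene, with motif letters that match in capitals. On the other strand an ERSE reads CGTGG and ATTGG, and an ERSE-II reads CGTGG and CCAAT.
Hspa5, chr2:34772020-34772048, plus strand: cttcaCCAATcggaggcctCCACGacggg
Hsp90b1, chr10:86705633-86705661, minus strand: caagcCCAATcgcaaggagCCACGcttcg
Hsp90b1, chr10:86705528-86705556, minus strand: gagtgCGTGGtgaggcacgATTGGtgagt
Pdia6, chr12:17266486-17266514, plus strand: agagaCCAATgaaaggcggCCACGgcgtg
Calr, chr8:84847070-84847098, minus strand: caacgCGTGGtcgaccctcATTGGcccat
Canx, chr11:50325795-50325823, minus strand: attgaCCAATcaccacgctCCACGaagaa
Creld2, chr15:88819515-88819543, plus strand: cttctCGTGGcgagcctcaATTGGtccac
Pdia3, chr2:121413868-121413896, plus strand: cgcagCCAATcggcggctgCCACactgcg
Pdia4, chr6:47813597-47813625, minus strand: aaccgaGTGGcagcccgtgATTGGtggtc
Sdf2l1, the ERSE-II with 1 mismatch, chr16:17132517-17132537, minus strand: ggaagCGTGGaCCAgTtaaaa
Canx carried an exact ERSE too, and was the member that stood closest to sham in both injured sections, as given next. The relation of the sites to the levels was not tested.

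The first comparison asked how the injury moved these genes over a whole section. Of the 10, 9 were higher in I/R than in sham by log2 ratios of 0.47 to 1.75, with every interval above 0, and the small factors Creld2, Sdf2l1 and Manf stood furthest apart. The 10 genes together made up 1549 CPM (1534 to 1565) of sham, 2295 (2278 to 2312) of I/R and 2260 (2240 to 2280) of SBP. Canx, the membrane-bound lectin chaperone of glycoproteins, was level at 346, 350 and 358 CPM, with a log2 ratio of I/R over sham of 0.02 (-0.02 to 0.06).

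Creld2, an ER stress-inducible factor with EGF-like repeats, had 9.20 CPM (8.05 to 10.5) in sham, 30.9 (29.0 to 33.0) in I/R and 23.0 (21.0 to 25.1) in SBP. Sdf2l1, a member of the HSPA5 chaperone complex, had 9.99 CPM (8.79 to 11.3), 25.5 (23.8 to 27.4) and 24.9 (22.9 to 27.1) in the same order. Manf, a secreted protector of ER-stressed cells, had 42.0 CPM (39.5 to 44.6), 98.0 (94.5 to 102) and 84.6 (80.8 to 88.6). In all 3, both injured sections lay above sham without overlap of the intervals. The log2 ratios of I/R over sham were 1.75 for Creld2, 1.35 (1.15 to 1.56) for Sdf2l1 and 1.22 (1.12 to 1.32) for Manf.

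Hspa5 encodes BiP, the HSP70 of the ER that also holds the stress sensors inactive. Its level in sham was 277 CPM (270 to 283), against 456 (449 to 464) after I/R and 519 (510 to 529) with SBP, and on this scale it was the only member whose SBP interval lay wholly above that of I/R. Hsp90b1 (GRP94), the HSP90 of the ER, had 191 CPM (186 to 196), 310 (303 to 316) and 308 (301 to 316). Calr, the soluble lectin chaperone that binds calcium, had 422 CPM (414 to 430), 585 (576 to 593) and 596 (586 to 606). Thus Hsp90b1 and Calr lay above sham in both injured sections, with intervals that overlapped between I/R and SBP. Their log2 ratios of I/R over sham were 0.70 (0.65 to 0.75) and 0.47 (0.44 to 0.51), and that of Hspa5 was 0.72 (0.68 to 0.76).

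The protein disulfide isomerases, which form and shuffle the sulphur bridges of folding proteins, split by section. Pdia3 (ERp57), the partner of the lectin chaperones, had 132 CPM (128 to 137) in sham, 227 (222 to 233) in I/R and 161 (156 to 167) in SBP. Pdia6 had 107 (103 to 111), 190 (185 to 195) and 164 (158 to 169) CPM. Pdia4 had 13.1 (11.7 to 14.6), 22.8 (21.1 to 24.5) and 21.5 (19.5 to 23.5) CPM. On the CPM scale Pdia3 and Pdia6 were therefore lower in SBP than in I/R beyond counting error, while the intervals of Pdia4 overlapped. The log2 ratios of I/R over sham were 0.78 for Pdia3, 0.80 for Pdia4 and 0.82 for Pdia6.

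**Figure D1:**
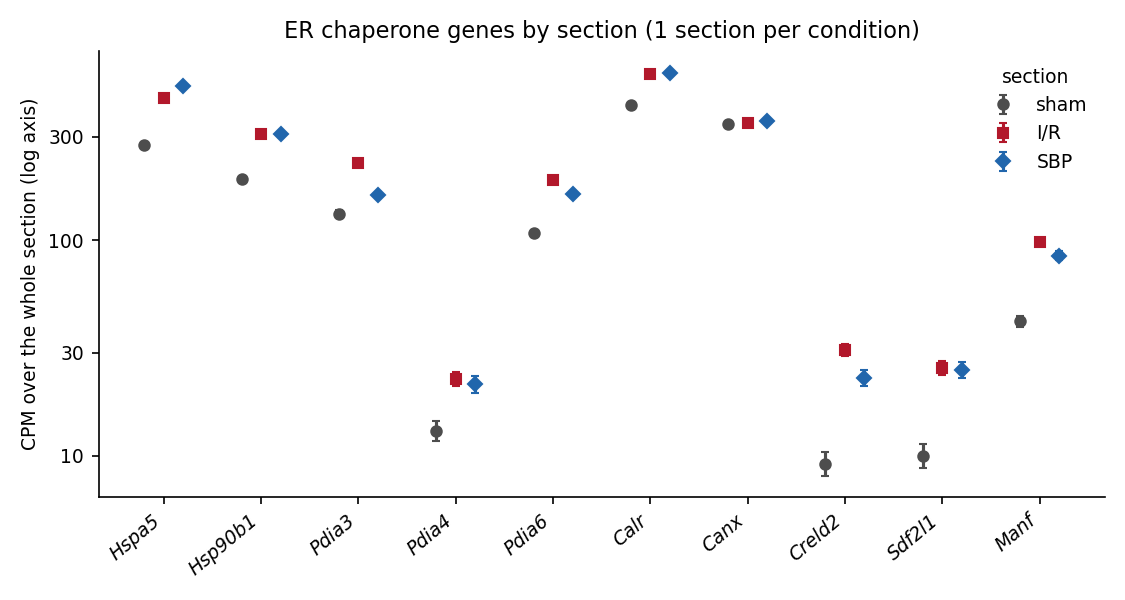
CPM of each gene over all kept spots of a section, on a log axis; points are the sham, I/R and SBP sections (1 per condition) and bars are 95% counting intervals. Of the 10 genes, 9 stand higher in both injured sections than in sham, Hspa5 is highest in SBP at 519 CPM, and Canx lies between 346 and 358 CPM in all 3.

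Sections differ over all genes, so each ratio was also read against the median of all genes tested (50 UMIs or more over both sections), and a gene was called when it departed from that median by at least 0.5 on the log2 scale. In I/R over sham the median was 0.24, and 6 of the 10 members were called higher (Pdia3, Pdia4, Pdia6, Creld2, Sdf2l1 and Manf) against 15.4% of all genes, and 0 lower against 12.9%. In SBP over sham the median was 0.08, and 7 of 10 were called higher against 5.45% of genes, and 0 lower against 5.43%. These 7 were Hspa5 (log2 ratio 0.91), Hsp90b1 (0.69), Pdia4 (0.71), Pdia6 (0.61), Creld2 (1.32), Sdf2l1 (1.32) and Manf (1.01). Calr (0.50), Pdia3 (0.28) and Canx (0.05) were not. Canx is the one member whose direction against sham turned with the scaling: its log2 ratio of I/R over sham was -0.21 with TMM factors, -0.22 with median-of-ratios factors and -0.10 without mitochondrial UMIs, but 0.16 with every spot weighted equally. The median log2 ratio of the 10 was 0.79 in I/R over sham and 0.70 in SBP over sham, which share the sham section.

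In SBP over I/R the median of all genes was -0.17, and 0 of 10 members were called, against 6.76% of genes higher and 10.7% lower. Hspa5 was higher by 0.19 (0.15 to 0.22). Pdia3 was lower, with a log2 ratio of -0.50 (-0.56 to -0.44), followed by Creld2 at -0.43 (-0.59 to -0.27), Pdia6 at -0.21 and Manf at -0.21. Pdia6 and Manf thus lay close to the median of all genes. For Hsp90b1 (-0.01), Pdia4 (-0.09), Calr (0.03), Canx (0.03) and Sdf2l1 (-0.04) the interval held 0. These small ratios moved with the scaling. With TMM factors Hspa5 was at 0.34, Canx at 0.19, Calr at 0.18 and Hsp90b1 at 0.15, and with every spot weighted equally they were at 0.10, -0.08, -0.05 and -0.12.

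To compare how widely the genes were detected, spots were thinned to 6500 UMIs. The shares below leave out the 132, 202 and 213 shallower spots of sham, I/R and SBP. Hspa5 was then detected in 79.1% of sham spots (77.3 to 80.8), 90.5% of I/R spots (89.1 to 91.8) and 95.5% of SBP spots (94.4 to 96.4). Creld2 was detected in 5.14%, 16.7% and 13.2%, and Manf in 21.3%, 41.0% and 39.2%. The wider detection went with the higher levels for these 3 genes. Without thinning, the 1% of spots with most Hspa5 held 6.08%, 4.23% and 3.71% of its UMIs in sham, I/R and SBP.

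Other lists of the ER machinery were read by the same call, against the same 15.4% of all genes higher and 12.9% lower. In I/R over sham, 2 of 14 co-chaperones and oxidases were called higher and 1 lower, from Ero1lb (1.03), an oxidase that recharges the isomerases, to Cdnf (-0.43), the paralog of Manf. Of 14 translocon and glycosylation genes 6 were called higher, from Sec61b (1.28), a subunit of the translocation channel, to Ddost (0.32). Of the 11 genes of ER-associated degradation 10 had enough UMIs and 3 were called higher, and they spanned Syvn1 (1.003), the ubiquitin ligase of that pathway, to Herpud1 (-0.15). Of 10 sensors and factors of the unfolded protein response 2 were called higher, and they spanned Atf3 (1.59) to Atf6 (0.09), where Atf6 encodes the sensor that acts on ERSE. None of 3 KDEL receptors, which return chaperones to the ER, was called (Kdelr3 at 0.74 to Kdelr1 at -0.03).

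Chaperones of other sites stood beside them. Of 13 genes for collagen folding in the ER 3 were called higher (Plod3 1.05 to P4ha2 -0.15), and of 13 cytosolic and mitochondrial chaperones 4 (Hsp90aa1 1.22 to Hspa9 -0.20). Of 8 genes of the sarcoplasmic reticulum, the calcium store of muscle, 0 were called higher and 6 lower, from Hrc (-0.80) to Casq1 (-0.11). In SBP over I/R, these lists were read against 6.76% of all genes called higher and 10.7% lower. Derl3, a degradation factor induced by ER stress, was higher at a log2 ratio of 2.63 (1.78 to 3.58) on 62 UMIs against 14, and Herpud1 at 0.34 (0.27 to 0.42). Atf3 (-1.18), Eif2ak3 (-0.82, the gene of PERK), Edem1 (-0.74), Ero1lb (-0.87), Sec61b (-0.71), Hsp90aa1 (-0.68) and Casq1 (-0.75) were lower. The genes of this comparison that no fixed rule had picked, such as Derl3, Eif2ak3 and Edem1, were named after their values were seen.

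The next comparison set Ankrd1-high spots against the other spots of the same section. In sham, 7 of 10 members were called higher in Ankrd1-high spots, against 15.2% of genes higher and 17.2% lower. These were all members but Hspa5, Calr and Canx. In I/R, 1 of 10 was called higher (Creld2), against 6.45% higher and 11.5% lower. In SBP, 0 of 10 were called, against 10.1% higher and 12.9% lower. The medians over all genes were 0.31, 0.24 and 0.21, and those over the 10 members 1.03, 0.47 and 0.23.

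Hspa5 had a higher CPM in Ankrd1-high than in other spots of sham and I/R but not of SBP, and in no section was it called against all genes. Its level was 410 CPM (382 to 441) in Ankrd1-high and 266 (260 to 273) in other spots of sham, 560 (544 to 576) and 418 (409 to 427) in I/R, and 522 (500 to 545) and 519 (508 to 529) in SBP. The 2 spot classes were apart in sham and I/R and overlapped in SBP, with log2 ratios of 0.62, 0.42 and 0.01 (-0.06 to 0.08). Hsp90b1 had 334 against 180 CPM in sham, 384 against 282 in I/R and 292 against 312 in SBP. Its ratio was 0.89 (0.77 to 1.02), 0.45 (0.38 to 0.51) and -0.09, the last with an interval from -0.19 to just under 0. That sign turned with the threshold: with the 90th percentile of sham in place of the 95th, Hsp90b1 in SBP was at 0.032.

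Pdia3 was higher in the Ankrd1-high spots of each section, with 244 against 124 CPM in sham, 294 against 203 in I/R and 226 against 147 in SBP. Its log2 ratios were 0.98 (0.84 to 1.13), 0.54 (0.47 to 0.61) and 0.62 (0.51 to 0.73). By the call against all genes, Pdia3 was higher in sham only. Creld2 was higher as well, at 1.22 (0.66 to 1.74), 0.80 (0.61 to 0.995) and 0.68 (0.38 to 0.97), and was called in sham and I/R. The remaining members were at 0.19 (Canx) to 1.12 (Sdf2l1) in sham, 0.15 (Canx) to 0.74 (Manf) in I/R and 0.15 (Calr) to 0.32 (Manf) in SBP. Manf in I/R lay just under the call. Without mitochondrial UMIs the 10 ratios of I/R ran from -0.08 to 0.46 and 0 of 10 were called.

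**Figure D2:**
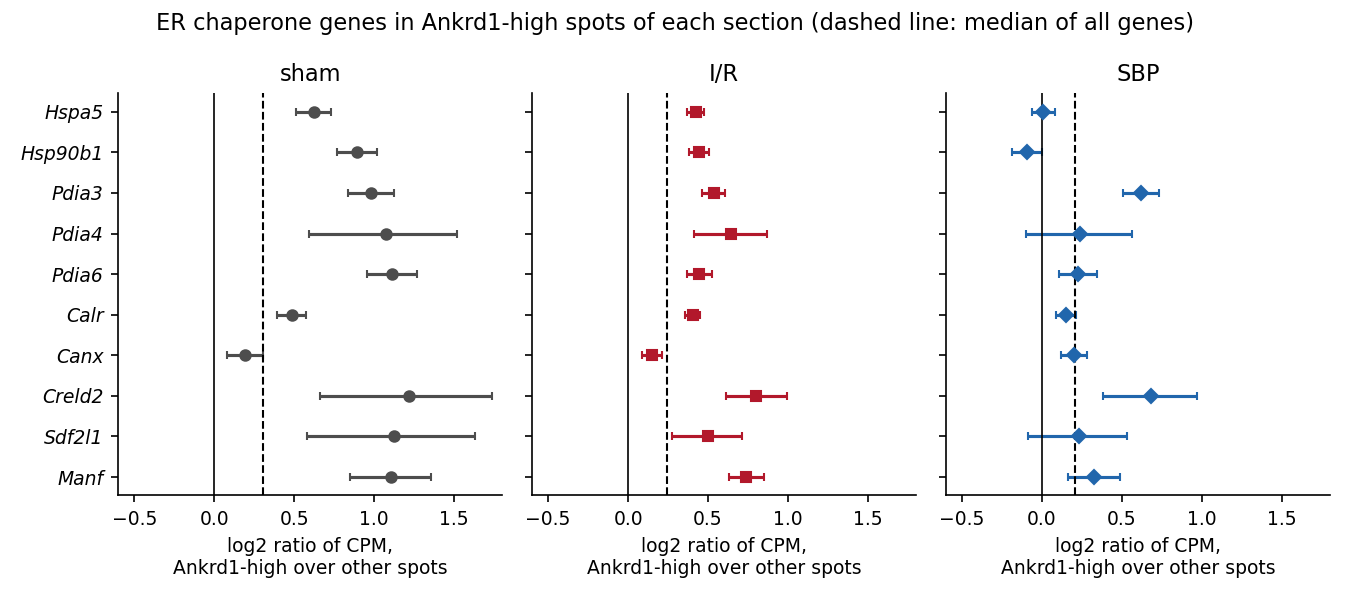
Log2 ratio of CPM in Ankrd1-high over other spots of the same section for each gene, with 95% counting intervals; panels are sham, I/R and SBP, the solid line is 0 and the dashed line the median of all genes (0.31, 0.24 and 0.21). Hspa5 goes from 0.62 in sham to 0.01 in SBP, while Pdia3 stays at 0.54 to 0.98.

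The other lists were read in Ankrd1-high over other spots of I/R, against 6.45% of all genes called higher and 11.5% lower. Of 14 co-chaperones and oxidases 1 was higher and 1 lower, from Txndc5 (0.76), an isomerase, to Ero1lb (-0.44). Of 10 genes of the unfolded protein response 3 were higher, from Ppp1r15a (0.98), which restores translation after PERK has lowered it, to Ddit3 (-0.24), the gene of CHOP. Of 3 KDEL receptors 1 was higher (Kdelr3, 0.79), of 14 translocon and glycosylation genes 1 (Ostc, 0.74), of 13 genes of collagen folding 1 (Serpinh1, 0.79, the collagen chaperone HSP47) and of 13 cytosolic and mitochondrial chaperones 1 (Hsp90aa1, 0.92). None of 10 degradation genes was called, and of 8 genes of the sarcoplasmic reticulum 3 were lower, Hrc furthest (-1.24).

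Spot classes also differed in what else they held. Ankrd1-high spots were deeper, with a median of 14927 against 10501.5 UMIs in sham, 17348 against 14103 in I/R and 11989.5 against 10453 in SBP. As a share of UMIs, their cardiomyocyte markers were lower than in other spots of each section. The levels were 19487 against 26369 CPM in sham, 16335 against 21035 in I/R and 18456 against 23394 in SBP. Their mitochondrial share was lower too, at 45.2% against 48.9%, 40.6% against 45.7% and 43.9% against 46.9%. Fibroblast markers were at 1980 against 948 CPM in sham, 1188 against 935 in I/R and 772 against 776 in SBP. Neutrophil markers were at 58.5 against 24.7, 269 against 224 and 263 against 82.6 CPM. Macrophage markers were at 681 against 473, 1036 against 971 and 687 against 527 CPM. Atrial markers (Myl7, Myl4, Sln and Nppa) were at 522 against 456, 2442 against 670 and 2755 against 1081 CPM. Sln was at 0 in both classes of I/R and SBP, and Myl7 at 0 in Ankrd1-high spots of sham. The sum holds Nppa, which is also stress-responsive, so it does not by itself mark atrial tissue. All 6 fibroblast markers were detected in each class, and Retnlg of the 4 neutrophil markers was at 0 in Ankrd1-high spots of sham. The part of these cells in the ratios was not tested.

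Between the injured sections, 3 members had opposite directions in the spot classes on the CPM scale with both intervals clear of 0. In Ankrd1-high spots Hspa5 was at 522 CPM in SBP and 560 in I/R, a log2 ratio of -0.10 (-0.18 to -0.03). In other spots it was at 519 in SBP and 418 in I/R, a log2 ratio of 0.31 (0.27 to 0.35). Hsp90b1 was at -0.39 and 0.14, and Calr at -0.13 and 0.12, again with intervals on opposite sides of 0. These ratios were not centred on the median of all genes, which was below 0 over the whole section. The ratios of Pdia3 (-0.38 and -0.46), Creld2 (-0.44 and -0.31) and Pdia6 (-0.34 and -0.12) were below 0 in both classes. Manf was below 0 in both as well, with only a small departure in other spots. By the call against all genes, 0 of 10 were called in Ankrd1-high spots (7.72% of genes higher, 9.52% lower) and 0 of 10 in other spots (5.96% and 10.4%). The interaction of section and spot class has no replicate and was not tested. Other scalings were not run by spot class, and over the whole section TMM factors moved Hspa5 from 0.19 to 0.34, by more than the size of its ratio in Ankrd1-high spots.

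Against sham, more members were called in the other spots than in Ankrd1-high spots. In I/R over sham 6 of 10 were called higher in other spots (14.3% of genes higher, 9.68% lower) and 3 of 10 in Ankrd1-high spots (15.3% higher, 14.5% lower), namely Creld2 (1.20), Manf (0.73) and Sdf2l1 (0.69). In SBP over sham 7 of 10 were called higher in other spots (5.23% higher, 4.82% lower) and 2 of 10 in Ankrd1-high spots (9.45% higher, 9.92% lower), Creld2 (0.77) and Sdf2l1 (0.50, with an interval that held 0). In Ankrd1-high spots of sham, only 36 to 1058 UMIs per gene stand behind the values, so Creld2, Sdf2l1 and Pdia4 were measured loosely there.

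The last of the planned readings was the Pearson correlation of each gene with Col1a1, the collagen chain that marks matrix-producing fibroblasts, over the spots of a section (log2 of UMIs per 10000 plus 1). Spots of a section share their library and each spot's denominator, so these values are descriptions. Among genes with at least 500 UMIs, 3 of 7 members had a correlation of at least 0.2 in sham against 6.15% of 3465 genes. In I/R 8 of 10 did against 11.3% of 4615 genes, and in SBP 1 of 8 against 4.39% of 3210 genes. The median over all genes was 0.05, 0.09 and 0.05.

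Pdia3 had the highest value of the 10 in each section, with 0.30 over the 2234 spots of sham, 0.37 over the 2082 of I/R and 0.21 over the 1960 of SBP. Hsp90b1 had 0.24, 0.33 and 0.11, and Pdia6 0.27, 0.30 and 0.14. Calr had 0.19, 0.33 and 0.19. Hspa5 had 0.19, 0.32 and 0.00, so that in SBP it ranked 2570 of the 3210 genes. The lectin chaperone Canx had 0.11, 0.21 and 0.09. Manf had 0.19, 0.25 and 0.13. Correlations of Pdia4, Creld2 and Sdf2l1 lay between 0.06 and 0.21, and rested on 231 to 935 UMIs.

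**Figure D3:**
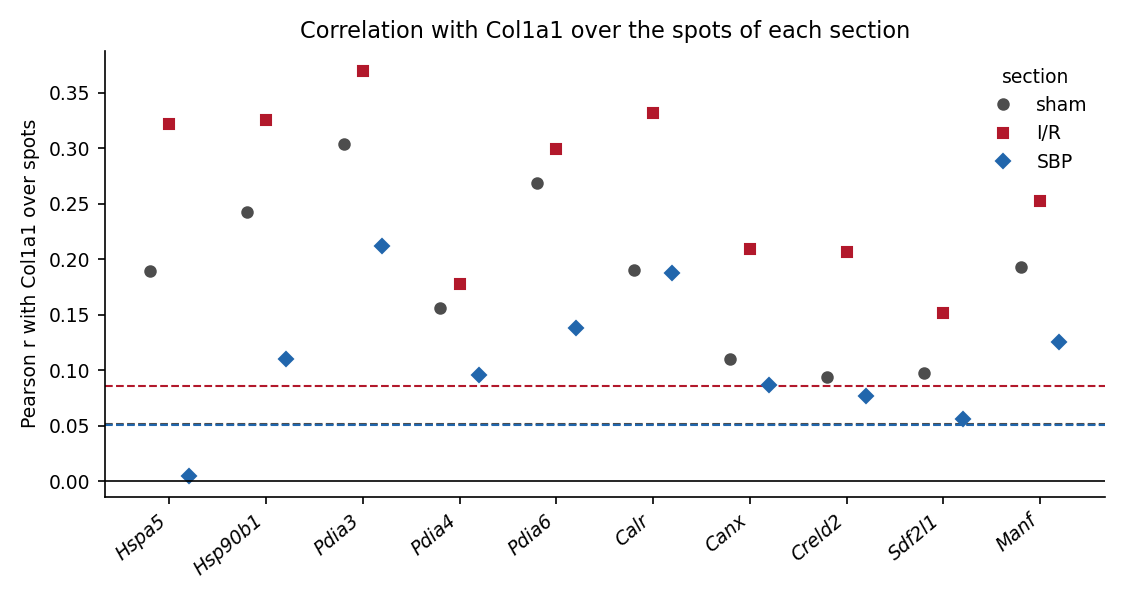
Pearson correlation of each gene with Col1a1 over the spots of each section (2234, 2082 and 1960 spots); dashed lines are the medians over all genes with at least 500 UMIs, 0.09 in I/R and 0.05 in sham and SBP (those overlie each other). The I/R values lie above the SBP values for all 10 genes, and Hspa5 in SBP lies at 0.00.

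Without mitochondrial UMIs the I/R correlations with Col1a1 were 0.07 to 0.26, with 2 of 10 at 0.2 or more, and in spots thinned to 6500 UMIs 5 of 10 were. The summed level of the 10 genes had a correlation with Col1a1 of 0.36, 0.41 and 0.21 in sham, I/R and SBP, but of -0.45, -0.78 and -0.43 with the summed cardiomyocyte markers and -0.52, -0.85 and -0.51 with the mitochondrial share. With macrophage markers it was 0.38, 0.75 and 0.36, and with neutrophil markers 0.31, 0.74 and 0.36. With the logarithm of the UMIs of a spot it was 0.14, -0.33 and -0.14. The members themselves were correlated by 0.12, 0.33 and 0.10 on average over their 45 pairs in the 3 sections. The highest was 0.53 between Pdia3 and Calr in I/R. The part of these cell types, of depth and of the mitochondrial share in the relation with Col1a1 was not tested.

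The same relation, over the same spots, was also read in levels. From spots without a Col1a1 UMI to the tertile of Col1a1-positive spots richest in it, the log2 ratio in I/R was between 0.51 (Canx) and 1.52 (Creld2), with Pdia3 at 1.25 (1.16 to 1.35) and Hspa5 at 0.74 (0.68 to 0.81). In sham it was between 0.19 (Canx) and 1.22 (Pdia4, with Pdia3 also at 1.22). In SBP Pdia3 was at 0.89 (0.77 to 1.01) and Hspa5 at 0.08 (0.00 to 0.15). The median of all genes was not computed for these ratios. Between the same 2 groups of spots the mitochondrial share went from 50.2% to 45.1% in sham, 48.1% to 35.6% in I/R and 48.2% to 40.7% in SBP. Its part in the ratios was not tested.

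Ankrd1 and Col1a1 were then crossed. In I/R, among spots outside that Col1a1-rich tertile, all 10 genes were higher in the 317 Ankrd1-high than in the 1278 other spots, by 0.27 (Canx) to 1.09 (Pdia4), with Hspa5 at 0.58 (0.51 to 0.64). Among Col1a1-rich spots, 162 Ankrd1-high against 325 other, the ratios lay between -0.53 (Pdia4) and 0.05 (Manf), with Hspa5 at -0.16 (-0.25 to -0.07). In sham all 10 ratios were above 0 in both classes, from 0.27 (Canx) to 1.66 (Sdf2l1) outside and 0.01 (Canx) to 0.82 (Creld2) inside the Col1a1-rich tertile, some on as few as 9 UMIs. Medians over all genes were not computed within Col1a1 classes, so ratios above 0 have no baseline here. The difference between the classes was not tested. In SBP the ratios ran from -0.11 (Hsp90b1) to 0.72 (Pdia3) in spots with no or low Col1a1, with Hspa5 at -0.01, and from -0.21 (Pdia6) to 0.57 (Creld2) in Col1a1-rich spots, with Hspa5 at 0.04.

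**Figure D4:**
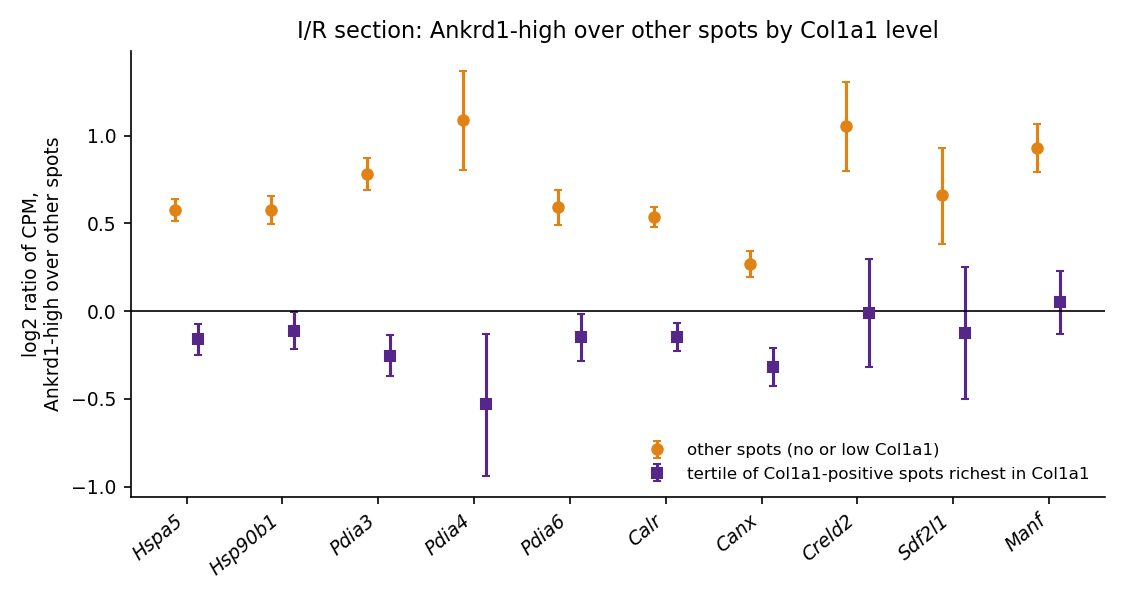
I/R section: log2 ratio of CPM in Ankrd1-high over other spots for each gene, with 95% counting intervals, in the tertile of Col1a1-positive spots richest in Col1a1 (squares) and in all remaining spots (circles). Ratios are 0.27 to 1.09 in the remaining spots and -0.53 to 0.05 in Col1a1-rich spots.

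Since cardiomyocyte markers differed between spots, the spots of each section were ranked by their summed cardiomyocyte markers (Myh6, Tnnt2, Tnni3, Actc1, Ryr2 and Pln) and cut into quartiles, a reading added after the values above were seen. In the highest quartile the marker level was 31108, 26926 and 28489 CPM in sham, I/R and SBP, and macrophage markers were at 361, 358 and 344 CPM. Neutrophil markers were less alike, at 7.53, 21.6 and 17.5 CPM, and 0.36%, 1.92% and 3.27% of the spots were Ankrd1-high. The part of these differences in the values of this quartile was not tested. There Hspa5 had 241 CPM (228 to 254) in sham, 314 (301 to 327) in I/R and 520 (500 to 541) in SBP. The 3 intervals were apart, and SBP over I/R was a log2 ratio of 0.73 (0.65 to 0.81). Hsp90b1 had 157, 192 and 277 CPM, Calr 399, 390 and 543, and Manf 31.8, 46.6 and 73.0. Pdia3 had 92.3, 119 and 121 CPM, with no difference between the injured sections beyond counting error. Canx had 343, 270 and 336 CPM, and its log2 ratio of I/R over sham was -0.34 (-0.43 to -0.25).

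By the call against all genes of that quartile, 2 of 10 were higher in SBP over I/R, Hspa5 and Manf (5.6% of genes higher, 5.83% lower), and the median of the 10 was 0.47 against 0.09 over all genes. In SBP over sham 7 of 10 were called higher there (5.71% higher, 5.72% lower), and in I/R over sham 5 of 10 (6.91% higher, 6.13% lower). Among the other lists, 1 of 11 co-chaperones with enough UMIs was called higher in SBP over I/R (Dnajc3, 0.61), 2 of 10 degradation genes, and 0 of 13 cytosolic and mitochondrial chaperones, of which 1 was called lower and whose median was -0.18. Spots without a Col1a1 UMI gave Hspa5 522 CPM in SBP and 381 in I/R, a log2 ratio of 0.46 (0.39 to 0.52), and 1 of 10 members called higher (5.41% of genes higher, 7.82% lower). In those spots 7 of 10 were called higher both in I/R over sham (14.7% higher, 10.3% lower) and in SBP over sham (8.72% higher, 5.93% lower), which share the sham section.

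In the lowest quartile all 10 genes were highest in I/R and lowest in sham. Hspa5 had 366 CPM (352 to 380) in sham, 869 (844 to 893) in I/R and 594 (574 to 614) in SBP. SBP over I/R was below 0 for all 10, from -0.52 (Canx) to -1.12 (Creld2). The median of all genes was not computed for the lowest quartile, so these ratios have no baseline. These quartiles were not alike in content. Cardiomyocyte markers were at 20422, 8312 and 15756 CPM, macrophage markers at 823, 3087 and 953, neutrophil markers at 66.9, 964 and 340, and the mitochondrial share at 47.1%, 26.2% and 43.4%. From the highest to the lowest quartile of I/R, the 10 genes were higher by 1.20 (Canx) to 2.64 (Creld2). In SBP the same span was 0.19 for Hspa5, 0.36 for Hsp90b1 and 1.14 for Pdia3. In sham it was 0.60, 0.77 and 1.23 for the same genes. Only Calr (0.41 in SBP against 0.31 in sham) and Canx (0.37 against 0.13) had a larger span in SBP than in sham. In I/R the mitochondrial share was 49.1% in the highest and 26.2% in the lowest quartile. The median of all genes was not computed for these spans, and the part of the cell makeup in them was not tested. In I/R, 48.8% of the second lowest quartile were Ankrd1-high, against 30.3% of the lowest and 1.92% of the highest.

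**Figure D5:**
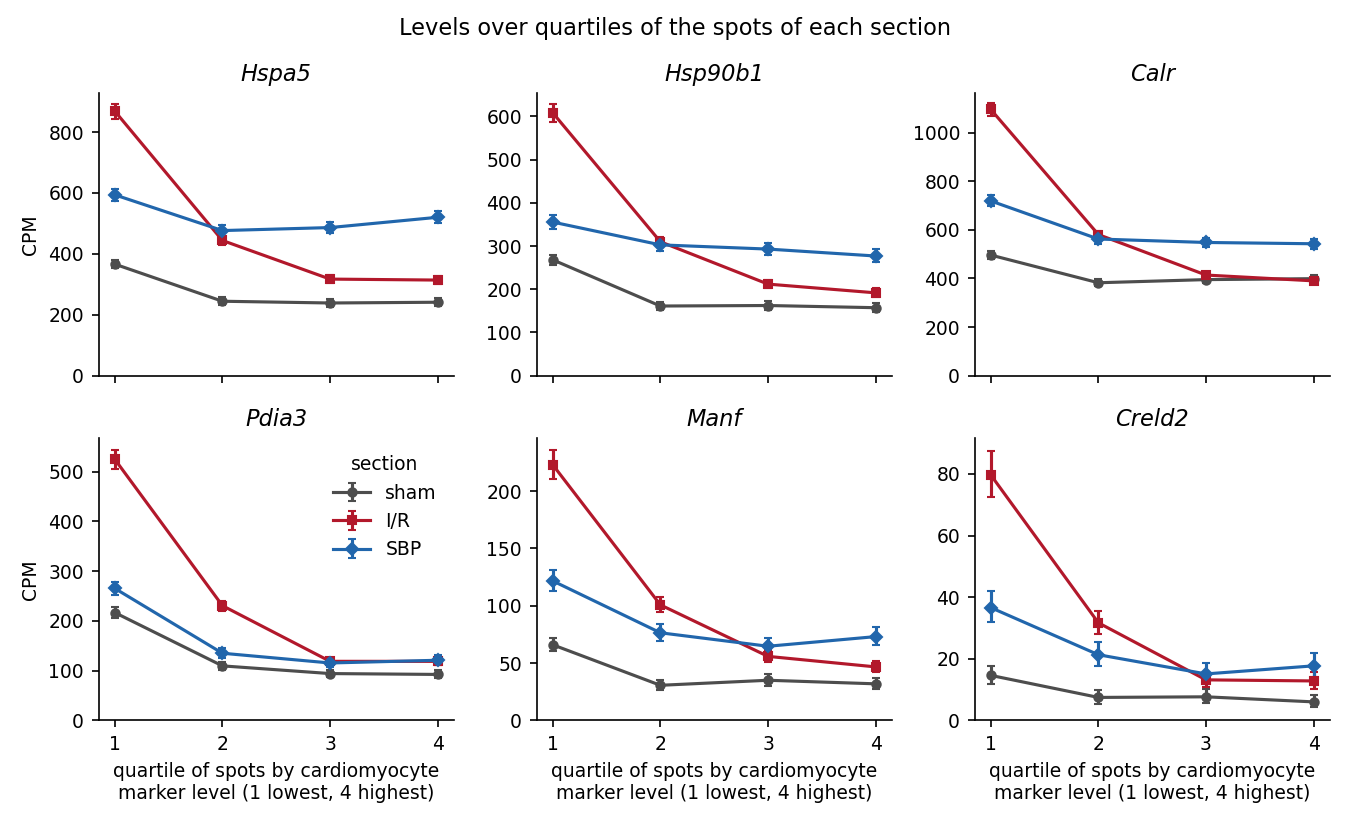
CPM of 6 of the genes (linear axes from 0) over quartiles of the spots of each section ranked by summed cardiomyocyte markers, with 95% counting intervals; lines join quartiles of a section. Hspa5, Hsp90b1 and Calr are highest in I/R in the lowest quartile and highest in SBP in the highest quartile, where Hspa5 is at 520 CPM in SBP, 314 in I/R and 241 in sham.

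The levels of Dbp and Arntl are given beside these values, both named after they were seen. Dbp, an output gene of the circadian clock, had 74.2, 52.1 and 131 CPM over the whole sham, I/R and SBP sections, and 80.6, 75.6 and 144 in the highest quartile. Arntl, a core clock gene of opposite phase, had 3.03, 3.97 and 0.693 CPM over the whole section, the last on 15 UMIs. The labels give no hour of collection, and the part of these genes in the Hspa5 values was not tested. Nppa, an atrial and stress-responsive natriuretic peptide gene, also differed in the highest quartile, by a log2 ratio of SBP over I/R of 1.04, and its part was not tested either.

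The 8 genes whose level over spots was most like the sum of the 10, by the mean correlation over I/R and SBP among 3123 genes with at least 500 UMIs in each section, were Actb (0.66), Rplp1 (0.62), Rpsa (0.62), Actg1 (0.61), Spp1 (0.60), Ctsb (0.60), Timp1 (0.60) and Ccl6 (0.58). Actb and Actg1 encode cytoplasmic actins, Rplp1 and Rpsa ribosomal proteins, Ctsb a lysosomal protease, and Spp1, Timp1 and Ccl6 secreted proteins. Correlations were lower in SBP than in I/R for each, for Actb 0.49 against 0.84. They were lower in sham than in I/R for each too, with Actb at 0.49 in sham. Of the members, Pdia3 followed the sum of the other 9 most closely in sham (0.32) and I/R (0.67), and Calr did so in SBP (0.33, with Pdia3 at 0.29).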

How the data were processed

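Visium sections of sham, I/R and SBP hearts were used (1 each), and the single-nucleus libraries were not analysed here. The authors deposited UMI counts per gene and spot, not normalized, from Space Ranger (1.3.0 per the file headers) on mm10 per the labels. The methods text names another version and a human reference, while the identifiers are mouse. Counts were summed over spots and divided by all UMIs (CPM). Intervals were exact Poisson (levels), exact binomial (shares) and exact conditional binomial (ratios), at 95%. The 10 genes and the lists were chosen with earlier results of these data known. Beside the 10, pathway genes were named for the highest and lowest ratio of a list in I/R over sham and in Ankrd1-high spots of I/R, with others named after their values were seen. Alternatives were the scaling, centring, call threshold, Ankrd1 percentile, spot weights, thinning and mitochondrial UMIs. Thinning drew 6500 UMIs per spot without replacement (seed 1), leaving out 132, 202 and 213 shallower spots. Of the identifiers, 32158 were found in GENCODE M21. The interval and call code was tested on simulated data. Python 3.11.15, scipy 1.17.1 and edgeR 4.0.16 (TMM factors only) were used.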

Additional observations from a re-analysis of the deposited data

Results flagged for a closer look

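Some genes lay on opposite sides of 0 in Ankrd1-high and in other spots under the same contrast, or in different sections, with both counting intervals clear of 0. The differences were not tested, since each condition was 1 section. In SBP over I/R, Hspa5 had a log2 ratio of -0.10 in Ankrd1-high spots and 0.31 in other spots, Hsp90b1 -0.39 and 0.14, and Calr -0.13 and 0.12. These signs were read on the CPM scale only, without centring on the median of all genes. The TMM shift over the whole section (Hspa5 from 0.19 to 0.34) was larger than the ratios of Hspa5 and Calr in Ankrd1-high spots. In SBP over sham, Hsp90b1 was at -0.19 in Ankrd1-high spots and 0.80 in other spots, and Pdia6 at -0.20 and 0.68. For Ankrd1-high over other spots, Hsp90b1 was at 0.89 in sham and 0.45 in I/R but at -0.093 in SBP, the last by an interval whose upper bound lay just under 0, and with the 90th percentile of sham as the Ankrd1 threshold it was at 0.032 in SBP, so that the sign no longer differed.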

How the results depend on the processing

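No paired analysis was possible because sham, I/R and SBP were each measured on 1 section, and for the same reason no section could be left out. In SBP over I/R, where 0 of 10 members were called, a threshold of 0.25 called 1 higher and 2 lower. Limiting the spots to those without a Col1a1 UMI called 1 higher, and limiting them to the quartile richest in cardiomyocyte markers called 2 higher. These limits on spots were chosen after seeing the data. For Ankrd1-high over other spots of I/R (1 called higher), 2 were called with the 90th percentile, 0 with the 99th, 2 with Ankrd1 counted in thinned spots, 0 without mitochondrial UMIs, 0 with spots weighted equally, 4 without centring and 5 at a threshold of 0.25. In SBP (0 called), 1 was called with the 90th percentile, 1 with the 99th, 1 with equal weights, 2 without centring, and 2 higher and 1 lower at 0.25. Correlations of at least 0.2 with Col1a1 went from 3 to 1 in sham after thinning, and in I/R from 8 to 5 after thinning and to 2 without mitochondrial UMIs. In SBP they went from 1 to 0 by Spearman, after thinning, without mitochondrial UMIs and without the 1% of spots richest in Col1a1. The causes were not tested. Counts for I/R over sham, SBP over sham and Ankrd1-high spots of sham stayed within 1.5 times the reported ones. TMM factors were 0.93, 1.09 and 0.98 for sham, I/R and SBP, and under them the member ratios of I/R over sham ran from -0.21 to 1.52.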
